A study of Mus musculus with 8 samples.

Results

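A block of piRNA names on mouse chromosome 1, near 56.78 Mb, holds fragments, most of which are also listed on 18S ribosomal RNA. Its members were the names whose kept locus, the first by chromosome name as text and then by start, lay on chromosome 1 with a start of at least 56782080 and an end of at most 56782390. This gave 642 of the 13450 names of the table that compares MC-LR with control (4.77%) and 752 of the 17375 names of the table that compares 2 shRNA groups (4.33%), with 585 names in both, which are 91.1% of the first set and 77.8% of the second. In the MC-LR table all 642 members lay on the minus strand between 1:56782088 and 1:56782385, and in the shRNA table all 752 lay on the minus strand between 1:56782087 and 1:56782385 (GRCm38, mm10).

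The libraries were small RNA of sperm of 8-month-old Balb/c mice, 2 per group, lettered A and B. The groups were a control; MC-LR, labelled as exposed to microcystin-LR, a toxin of cyanobacteria that inhibits the protein phosphatases PP1 and PP2A; a negative-control shRNA; and an shRNA that targets Hsp90aa1, the gene of the cytosolic chaperone HSP90 alpha. The labels do not give a dose of MC-LR, how the shRNA was delivered, or whether both libraries of a group are separate animals. The design text speaks of 2 MC-LR doses, so MC-LR A and B may differ in dose. They were used here as replicates of the same group. The p-values cover the spread among libraries alone, and that spread may be technical. Within MC-LR a difference in dose cannot be told apart from it. Levels are RPM, which divides the reads by the library total and puts all libraries on the same scale. Where a pair of values is given for a group, library A comes first. The tables list small RNA only, so neither the knockdown of Hsp90aa1 nor messenger markers of sperm were checked here.

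Ribosomal RNA is the structural and catalytic RNA of the ribosome, and 18S is the RNA of its small subunit. It is cut out of a long 45S precursor that is encoded in repeated gene copies. Sperm carry little intact ribosomal RNA, since most cytoplasm is shed while they mature, and fragments of ribosomal and transfer RNA make up much of their small RNA. piRNAs, in contrast, are germ cell small RNAs that bind PIWI proteins, commonly begin with U and guide the silencing of transposable elements. A name in a piRNA catalogue records that a fragment was once listed there, not that it binds a PIWI protein in these cells.

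No gene of GENCODE M21 or RefSeq overlaps the block. The nearest other listed name of chromosome 1 lay about 2910 kb away in both tables. Of the 642 members, 611 (95.2%) were also listed on the plus strand of the 18S rRNA copy of chromosome 17 (17:39846353-39848201, annotated as the rRNA gene CT010467.1 in GENCODE, 1849 nt), every member at 1 constant offset, and so were 711 of the 752 members of the shRNA table (94.5%). By this offset the block spans positions 1264 to 1562 of that 18S rRNA, counted from 1 at its 5′ end. The members listed there span positions 1264 to 1554 on the plus strand, while GENCODE places the rRNA gene on the minus strand. The plus strand was read here as the sense of the ribosomal RNA, so calling these members sense rests on that reading. Whether chromosome 1 holds a continuous copy was not analysed here.

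The window on the 18S copy is 17:39847616-39847914, plus strand, 299 nt. Its sequence is the reverse complement of the GENCODE transcript of the rRNA gene. It is shown because members can be placed on it by that offset. Members listed on the 18S copy reach from position 1264 to 1554. For members not listed there, a position is only a projection by the offset, and their sequence was not read. The first stretch in capitals is positions 1279 to 1304, piR-mmu-12369945, among the most abundant members of both tables, and the second is positions 1448 to 1471, piR-mmu-57637038, the member with the largest limma difference in the shRNA comparison.
18S window: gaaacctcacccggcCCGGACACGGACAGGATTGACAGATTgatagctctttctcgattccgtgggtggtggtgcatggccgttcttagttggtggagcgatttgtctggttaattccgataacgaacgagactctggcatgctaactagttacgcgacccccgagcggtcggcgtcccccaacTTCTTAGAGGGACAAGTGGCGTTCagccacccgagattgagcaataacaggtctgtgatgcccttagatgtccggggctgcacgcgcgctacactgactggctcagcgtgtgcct

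The members are nested fragments that share ends. The 642 members of the MC-LR table had 121 different 5′ ends and 134 different 3′ ends, and the 752 of the shRNA table had 124 and 140. Only 20 and 18 of the 5′ ends, respectively, had a single member. The 5′ end at position 1279 had the most, 14 and 15 members. Fragments starting there are printed with their last base in capitals, because they show how members differ from each other by bases at the 3′ end.
piR-mmu-49825864: ccggacacggacaggattgaC
piR-mmu-26654757: ccggacacggacaggattgacagaT
piR-mmu-12369945: ccggacacggacaggattgacagatT
piR-mmu-12369941: ccggacacggacaggattgacagattG
piR-mmu-11430284: ccggacacggacaggattgacagattgaT

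A second group starts at position 1448, within the sequence that follows a stretch without members. It is printed in the same way because its 24-nt fragment, the only one of these ending at position 1471, carried the largest limma difference among the members in the shRNA comparison, and its 30-nt fragment carried that among the members in the MC-LR comparison.
piR-mmu-34025840: ttcttagagggacaagtggcG
piR-mmu-33749290: ttcttagagggacaagtggcgT
piR-mmu-7259307: ttcttagagggacaagtggcgtT
piR-mmu-57637038: ttcttagagggacaagtggcgttC
piR-mmu-5079745: ttcttagagggacaagtggcgttcagC
piR-mmu-10826573: ttcttagagggacaagtggcgttcagccaC

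Members were 17 to 34 nt long in the MC-LR table and 17 to 33 nt in the shRNA table, with a median of 26 nt in both. A first base of T, the DNA letter of the U that is common at the start of piRNAs, was found in 31.1% of the members placed on the 18S copy in the MC-LR table and in 26.2% in the shRNA table, where T makes up 23.2% and 23.4% of the window's bases. Weighted by RPM, the first base was T in 32.2% and C in 35.2% of the MC-LR table, and T in 24.5% and C in 40.4% of the shRNA table. An A at the tenth base, the mark of the partner piRNA in amplification by PIWI slicing, stood in 17.2% and 20.8% of the members, beside 20.1% A in the window of either table. C was the most frequent first base by RPM in both tables.

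Coverage was uneven along the window. In the MC-LR table the highest summed level was at position 1287, in 149 members, with 3730 and 2794 RPM in the control libraries against 1185 and 1149 RPM with MC-LR. In the shRNA table it was at position 1290, in 235 members, with 2367 and 2452 RPM in the negative-control libraries against 275 and 223 RPM in the Hsp90aa1 shRNA libraries. No member of either table covered positions 1424 to 1447, a run of 24 nt, whereas all 24 of these positions were covered by names listed on chromosome 17 and not on chromosome 1, up to 70 in the MC-LR table and 81 in the shRNA table.

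**Figure D1:**
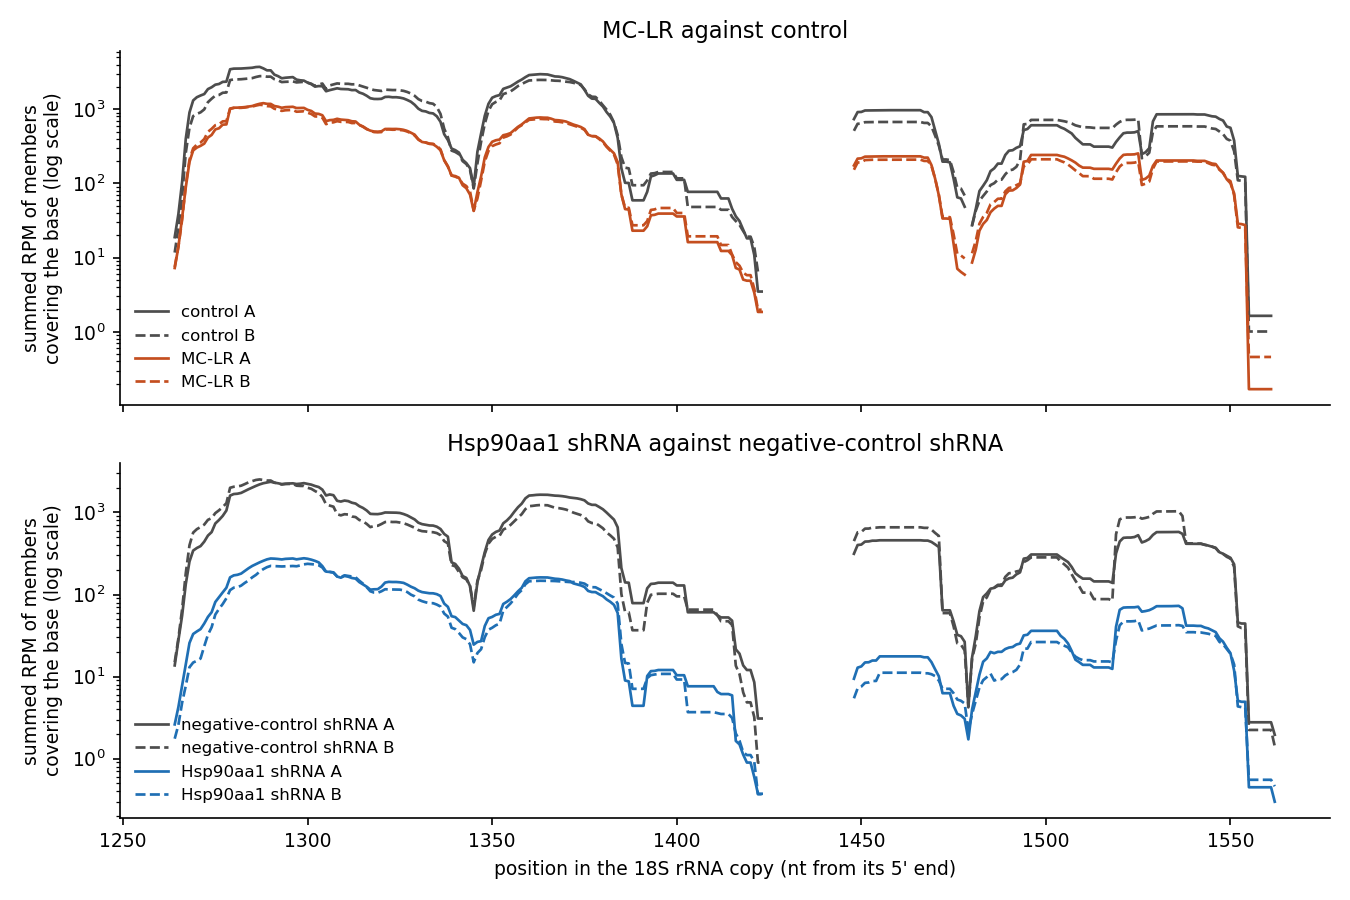
Summed RPM (log scale) of the members covering each base, by position in the 18S rRNA copy, with 1 line per library (A solid, B dashed; grey for control or negative-control shRNA, colour for MC-LR or Hsp90aa1 shRNA). In both tables the treated lines lie below the grey ones and the run from position 1424 to 1447 is empty. In the MC-LR table position 1479 is empty as well. The outlines differ in places, as from position 1471 to 1472, where negative-control B drops from 518 to 59.5 RPM and control B from 324 to 210 RPM.

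The levels behind these values were moderate. Library totals, recovered from the RPM steps, ranged from 4960467 to 14634370 reads. The reads of the median member numbered 153 and 44 in the control, 18 and 21 reads with MC-LR, 56 and 66 reads in the negative-control libraries, and 9 and 5 reads in the Hsp90aa1 shRNA libraries. A floor of 3 reads is worth 0.205 to 0.605 RPM, which covers counting error only. No member was at 0 in any library, but neither was any other listed name, so a name absent from a library cannot be seen here. The listed names held 38.1% and 35.2% of the library total in the control and 12.5% and 11.7% with MC-LR. In the shRNA table they held 27.7% and 32.3% in the negative-control libraries against 4.88% and 3.16% in the Hsp90aa1 shRNA libraries, so the whole list was lower in both comparisons, and what took the remaining reads is not analysed here. Replicates differed by more than sampling noise, with a chi-square per degree of freedom over the members of 19.1 in the control, 1.74 in MC-LR, 16.1 in the negative-control shRNA and 2.62 in the Hsp90aa1 shRNA libraries.

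The first comparison asks what changed in sperm small RNA after exposure to MC-LR. Of the members tested, 497 of 639 fell with MC-LR (77.8%, beside 73.1% of all names) and none rose. The members summed to 11468 and 9731 RPM in the control and to 3458 and 3316 RPM with MC-LR. Both MC-LR libraries lay below both control libraries, a 3.13-fold lower mean (10599 ± 1228 against 3387 ± 100 RPM, SD, n = 2; two-sided exact permutation p = 0.333, the smallest that 2 against 2 libraries allow). The sum of all listed names was 3.03-fold lower.

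By limma on log2(RPM + 1), with Benjamini-Hochberg adjustment over all 13271 names tested at a threshold of 0.05, 497 of the 639 tested members fell and 0 rose, with 142 not past the threshold and 3 under the filter on low values. Over all names, 73.1% fell and 2.37% rose. Leaving out MC-LR A lowered the count of members that fell to 262, and leaving out MC-LR B lowered it to 272. At an unadjusted p under 0.05, 0 members were higher by limma, beside 314 of all 13271 names tested. edgeR on library totals placed 519 members as lower, beside 75.4% of all names, and 0 as higher, beside 2.37%. The median member difference was −1.23 on the log2(RPM + 1) scale, beside −1.17 over all names tested, and members ranged from −3.25 to −0.50. All 639 tested members were on the lower side, beside 12957 of all 13271 names tested. In 611 of the 642 members every MC-LR library was below every control library, beside 92.6% of all names, and 31 members overlapped. In 0 members were both MC-LR libraries above both control libraries, beside 2.33% of all names.

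Set against the other listed names, the block lay close to them under MC-LR. Its share of the summed RPM of all listed names was 3.01% and 2.76% in the control and 2.77% and 2.83% with MC-LR, which overlap (two-sided exact permutation p = 1). With edgeR's TMM factors, which centre the listed names on each other and moved the median of all names from −1.64 to 0.00 (log2), the median member was at 0.02. On that scale 331 members were above 0 and 308 below, beside 6653 and 6618 of all names tested. Past the threshold were 4 members as lower and 0 as higher, beside 3.01% and 2.37% of all names. DESeq2 with its size factors also placed 4 members as lower and 0 as higher, beside 2.55% and 2.38% of all names.

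**Figure D2:**
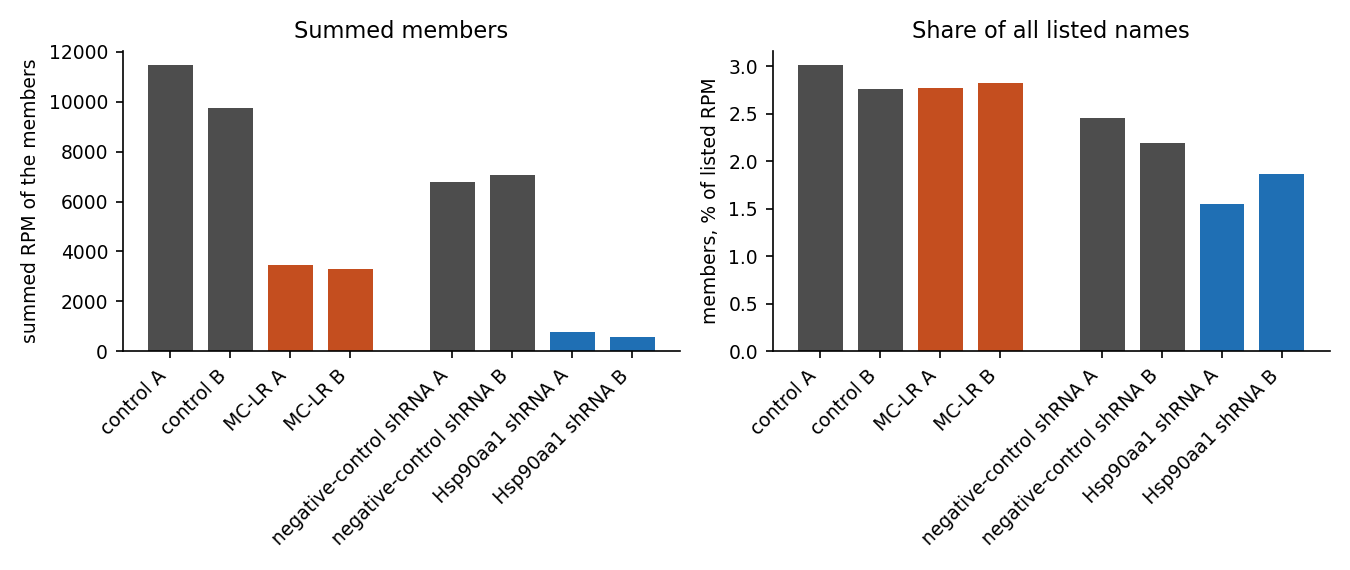
Left, summed RPM of the members in each of the 8 libraries; right, the same sum as a percentage of the RPM of all listed names of that library. Bars start at 0 and each is 1 library. On the left the treated bars are far below their controls; on the right the MC-LR bars overlap the control bars, while both Hsp90aa1 shRNA bars (1.55% and 1.87%) lie below the negative-control bars (2.45% and 2.19%).

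The most abundant member, piR-mmu-53205116, is a 32-nt fragment that was listed on chromosome 1 only and is projected to positions 1494 to 1525. It had 193 and 411 RPM in the control and 96.3 and 67.5 RPM with MC-LR, a fall of 1.79 ± 0.42 (log2(RPM + 1), SE; limma adjusted p = 0.00475). The control libraries differed by more than the gap between the lower control and the higher MC-LR library.

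piR-mmu-12369945, the 26-nt fragment from position 1279, had 192 and 169 RPM in the control and 94.4 and 76.8 RPM with MC-LR, 2.11-fold lower (limma adjusted p = 0.0168). Its 27-nt neighbour piR-mmu-12369941 had 160 and 154 RPM in the control and 65.6 and 54.4 RPM with MC-LR, 2.61-fold lower (limma adjusted p = 0.0056). The 25-nt piR-mmu-26654757 of the same start had 126 and 110 RPM against 65.6 and 51.2 RPM, 2.02-fold lower (limma adjusted p = 0.0233). In these 3 fragments the groups did not overlap, and their falls were smaller than that of the locus sum. With TMM factors each lay above 0, at 0.57, 0.27 and 0.64, and past no threshold. The calls also rest on both MC-LR libraries: without MC-LR A or B the limma adjusted p was 0.0837 or 0.163 for piR-mmu-12369945 and 0.0946 or 0.207 for piR-mmu-26654757, and without MC-LR B it was 0.0755 for piR-mmu-12369941.

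Together the 14 fragments starting at position 1279 had 1106 and 790 RPM in the control and 395 and 323 RPM with MC-LR, 2.64-fold lower, and 13 of them fell by limma. The 10 fragments starting at position 1448 had 737 and 512 RPM against 175 and 153 RPM, 3.82-fold lower, and all 10 fell by limma. The share that fell was 73.1% over all names tested. The 5 leading 5′ ends held 59 members and took 25.7% of the summed RPM of the members in the control and 24.9% with MC-LR. Their part of the block was close in both groups.

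Other leading ends lay nearer the start of the window. The end at position 1268 is led by the 21-nt piR-mmu-48950142, with 156 and 77.6 RPM in the control and 34.8 and 38.3 RPM with MC-LR, 3.20-fold lower (limma adjusted p = 0.00685). The end at position 1306 is led by the 31-nt piR-mmu-3903914, with 72.3 and 143 RPM against 29.8 and 31.1 RPM, 3.54-fold lower (limma adjusted p = 0.00434). From position 1448, the 22-nt piR-mmu-33749290 had 191 and 108 RPM against 46.5 and 42.2 RPM, 3.37-fold lower (limma adjusted p = 0.00382). The MC-LR libraries were close to each other in all 3, and the control libraries lay further apart, with the 21-nt and 22-nt fragments higher in control A and the 31-nt fragment higher in control B.

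The largest fall of a member under MC-LR by limma was that of piR-mmu-10826573. This 30-nt fragment of positions 1448 to 1477 had 14.1 and 16.3 RPM in the control and 0.505 and 0.915 RPM with MC-LR, 21.5-fold lower (log2(RPM + 1) difference −3.25 ± 0.35, SE; limma adjusted p = 0.000243). The MC-LR values rest on 3 and 6 reads. It also passed the threshold with TMM factors, at −2.74 (edgeR adjusted p = 0.00563).

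The next members by limma difference end at position 1374. The 22-nt piR-mmu-33778788 had 123 and 76.0 RPM in the control and 8.58 and 12.2 RPM with MC-LR, 9.56-fold lower, and passed the threshold with TMM factors at −1.61 (edgeR adjusted p = 0.0348). The 26-nt piR-mmu-19569938 had 57.6 and 47.8 RPM against 6.73 and 4.88 RPM, 9.08-fold lower, at −1.53 with TMM factors (edgeR adjusted p = 0.0393). The remaining member past that threshold, piR-mmu-13475810, a 25-nt fragment named after its values were seen, had 43.8 and 32.7 RPM against 4.04 and 4.12 RPM (TMM −1.58, edgeR adjusted p = 0.0363). So 3 of the 4 members that passed after centring share the 3′ end at position 1374. These fragments share most of their bases and are not independent of each other.

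Fragments ending 1 base later were less reduced. This pair of ends was chosen after the values were seen and has no test. The 7 members ending at position 1374 summed to 333 and 254 RPM in the control and 36.7 and 36.0 RPM with MC-LR, 8.07-fold lower, and the 8 members ending at position 1375 summed to 313 and 273 RPM against 86.9 and 74.5 RPM, 3.63-fold lower. In all 7 starts that both ends share, the longer fragment was less reduced. The start at position 1353 shows the pair in letters, with the last base in capitals, and here the longer fragment had 55.6 and 45.2 RPM in the control and 19.9 and 20.3 RPM with MC-LR.
piR-mmu-33778788: ttggtggagcgatttgtctggT
piR-mmu-34701301: ttggtggagcgatttgtctggtT
In the shRNA table the same pair of ends differed little, with 46.8 and 49.0 RPM in the negative-control libraries against 5.46 and 3.32 RPM for the end at 1374, and 118 and 102 RPM against 13.2 and 8.77 RPM for the end at 1375. The longer fragment was less reduced in 3 of the 7 shared starts.

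Among the smallest differences under MC-LR, 3 members did not pass the threshold. piR-mmu-17842142 had 4.78 and 2.42 RPM in the control and 2.19 and 1.98 RPM with MC-LR. piR-mmu-49168043 had 4.85 and 0.806 RPM against 1.35 and 1.22 RPM, and piR-mmu-10948533 had 3.35 and 1.01 RPM against 0.842 and 1.37 RPM. In piR-mmu-49168043 and piR-mmu-10948533 the groups overlapped, with control B low. Without control B all 3 passed the threshold, at limma adjusted p of 0.0321, 0.00168 and 0.0118. The 142 members that did not pass the threshold had a median level of 4.31 RPM over the 4 libraries, beside 7.24 RPM for those that fell, and their limma differences ranged from −1.25 to −0.50.

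The second comparison asks what the shRNA against Hsp90aa1 changed relative to the negative-control shRNA. In sum the members were lower by about 10 times, more than the sum of all listed names, and the sum of the 4 members ending at position 1471 was 137-fold lower. The members summed to 6797 and 7074 RPM in the negative-control libraries and to 758 and 591 RPM in the Hsp90aa1 shRNA libraries. The groups did not overlap, and the mean was 10.3-fold lower (6936 ± 196 against 674 ± 118 RPM, SD, n = 2; two-sided exact permutation p = 0.333). The sum of all listed names was 7.46-fold lower.

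By limma, 742 of the 743 tested members fell and 0 rose, with 9 members under the filter on low values. At an unadjusted p under 0.05, 0 were higher, beside 37 of all 16857 names tested. edgeR on library totals placed 741 as lower, beside 99.1% of all names, and 0 as higher, beside 0.219%. Over all 16857 names tested, 99.5% fell and 0.219% rose, so falling sets no member apart. The median member difference was −1.92 on the log2(RPM + 1) scale, beside −1.66 over all names tested, and members ranged from −6.74 to −0.75. In all 752 members both Hsp90aa1 shRNA libraries lay below both negative-control libraries, beside 99.8% of all names, and in 0 members was it the reverse, beside 0.213%.

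The share of the listed RPM was lower as well. It was 2.45% and 2.19% in the negative-control libraries and 1.55% and 1.87% in the Hsp90aa1 shRNA libraries, without overlap (two-sided exact permutation p = 0.333, the smallest possible here). TMM factors moved the median of all names from −2.83 to −0.04 (log2) and left the median member at −0.38. Of the members, 495 were below 0 and 248 above, beside 8674 and 8183 of all names tested. Past the threshold on that scale were 2 members as lower and 0 as higher, beside 0.089% and 0.219% of all names.

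The member with the largest fall, piR-mmu-57637038, was also the most abundant of the block in this table. It had 217 and 304 RPM in the negative-control libraries and 1.87 and 1.02 RPM in the Hsp90aa1 shRNA libraries, the latter from 25 and 11 reads. This is 180-fold lower (log2(RPM + 1) difference −6.74 ± 0.56, SE; limma adjusted p = 0.000582), and it passed the threshold with TMM factors at −4.68 (edgeR adjusted p = 0.0113). In the MC-LR table, which was made apart, it had 97.8 and 79.8 RPM in the control and 18.7 and 19.5 RPM with MC-LR.

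Its neighbours with the same 5′ end and another 3′ end were much less abundant in the negative-control libraries. The 23-nt piR-mmu-7259307, 1 base shorter, had 21.7 and 31.8 RPM with the negative-control shRNA and 1.35 and 0.831 RPM with the Hsp90aa1 shRNA. The 22-nt piR-mmu-33749290 had 21.7 and 40.7 RPM against 1.72 and 0.277 RPM. With the Hsp90aa1 shRNA the 22-nt, 23-nt and 24-nt fragments were thus at similar low levels, whereas with the negative-control shRNA the 24-nt fragment stood far above the others.

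**Figure D3:**
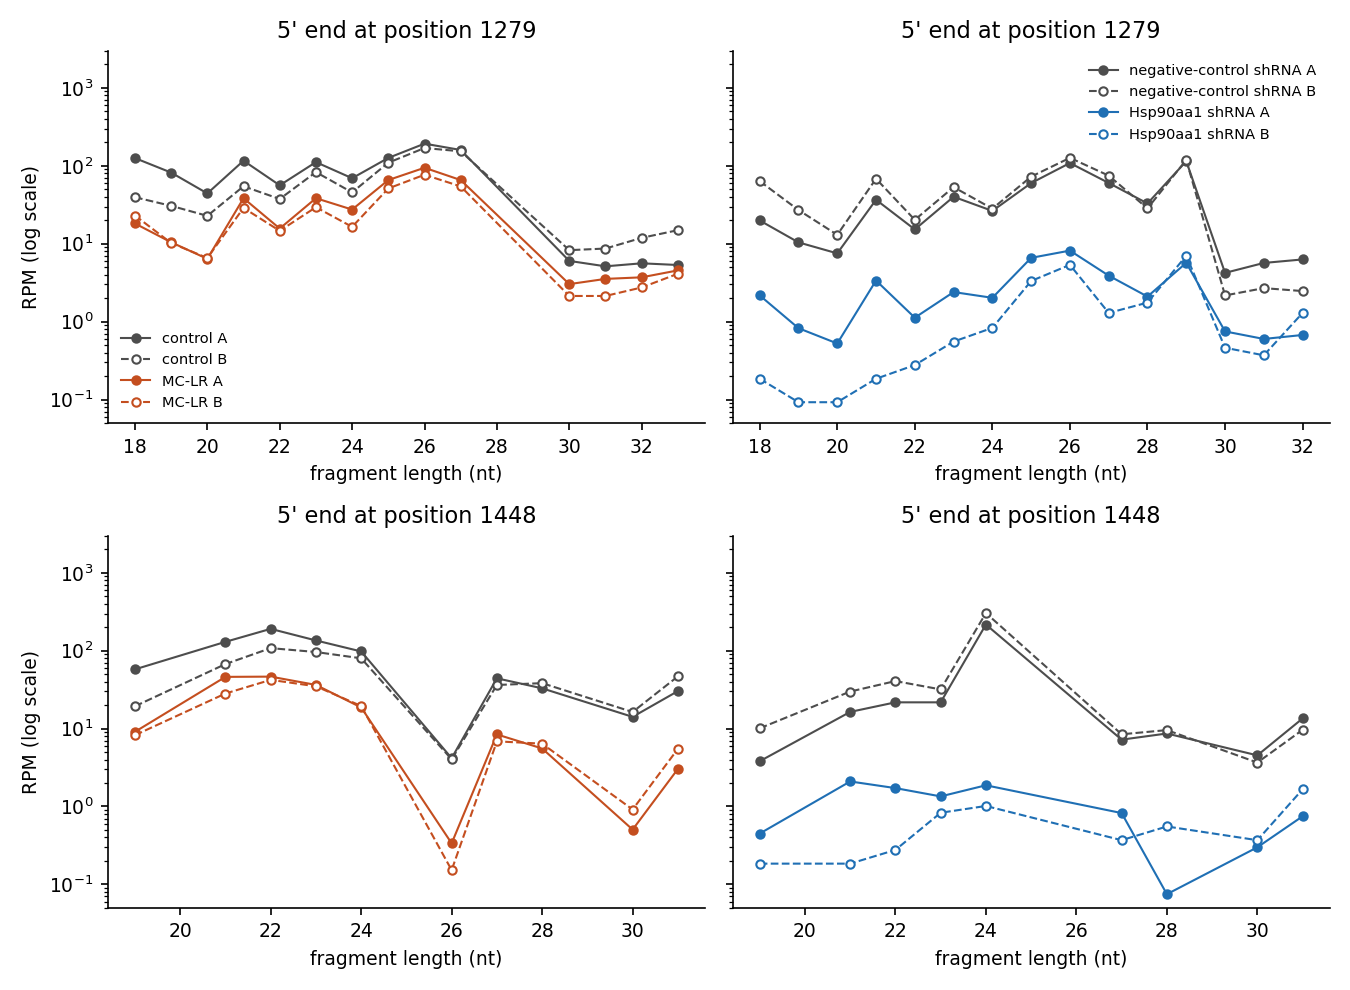
RPM (log scale) of fragments that start at position 1279 (top) and 1448 (bottom) by fragment length, MC-LR table on the left and shRNA table on the right, with 1 point per fragment and library (A filled, solid; B open, dashed). In the lower right panel the 24-nt fragment rises to 217 and 304 RPM in the negative-control libraries and is at 1.87 and 1.02 RPM in the Hsp90aa1 shRNA libraries, where no such rise is seen.

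The other members ending at position 1471 had the same pattern. The 23-nt piR-mmu-8235275, which starts 1 base later, had 63.2 and 94.0 RPM with the negative-control shRNA and 1.05 and 0.462 RPM with the Hsp90aa1 shRNA, 104-fold lower, and passed the threshold with TMM factors at −3.89 (edgeR adjusted p = 0.0486). The 21-nt piR-mmu-33786636 had 27.8 and 45.5 RPM against 0.674 and 0.0923 RPM, which are 9 reads and 1 read. All 4 members with this 3′ end summed to 315 and 459 RPM against 3.82 and 1.85 RPM, 137-fold lower. The 3 members ending 1 base earlier, at position 1470, summed to 29.5 and 45.3 RPM against 2.17 and 1.20 RPM, 22.2-fold lower. This pair of ends was chosen after the values were seen, and the difference between them was not tested.
piR-mmu-33786636: ttagagggacaagtggcgttC
piR-mmu-8235275: tcttagagggacaagtggcgttC
The capitals again mark the last base, here at position 1471.

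Under MC-LR the ends at positions 1470 and 1471 were close, with sums 3.20-fold and 3.67-fold lower. In the control the members ending at position 1471 summed to 146 and 113 RPM, and those ending at 1470 to 176 and 118 RPM. The sum at 1471 thus stood far above that at 1470 in the negative-control shRNA libraries and slightly below it in the control libraries, which are in the table made apart.

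DESeq2 with its size factors placed 6 members past the threshold as lower, beside 0.445% of all names. They include the 3 members just described. The others, named after their values were seen, are piR-mmu-5889964 and piR-mmu-5986995, which both end at position 1551, and piR-mmu-36338582, a 19-nt fragment of positions 1269 to 1287. piR-mmu-5889964 had 30.8 and 40.1 RPM with the negative-control shRNA and 0.449 and 0.462 RPM with the Hsp90aa1 shRNA. The 11 members ending at position 1551 summed to 188 and 177 RPM against 6.74 and 9.69 RPM.

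**Figure D4:**
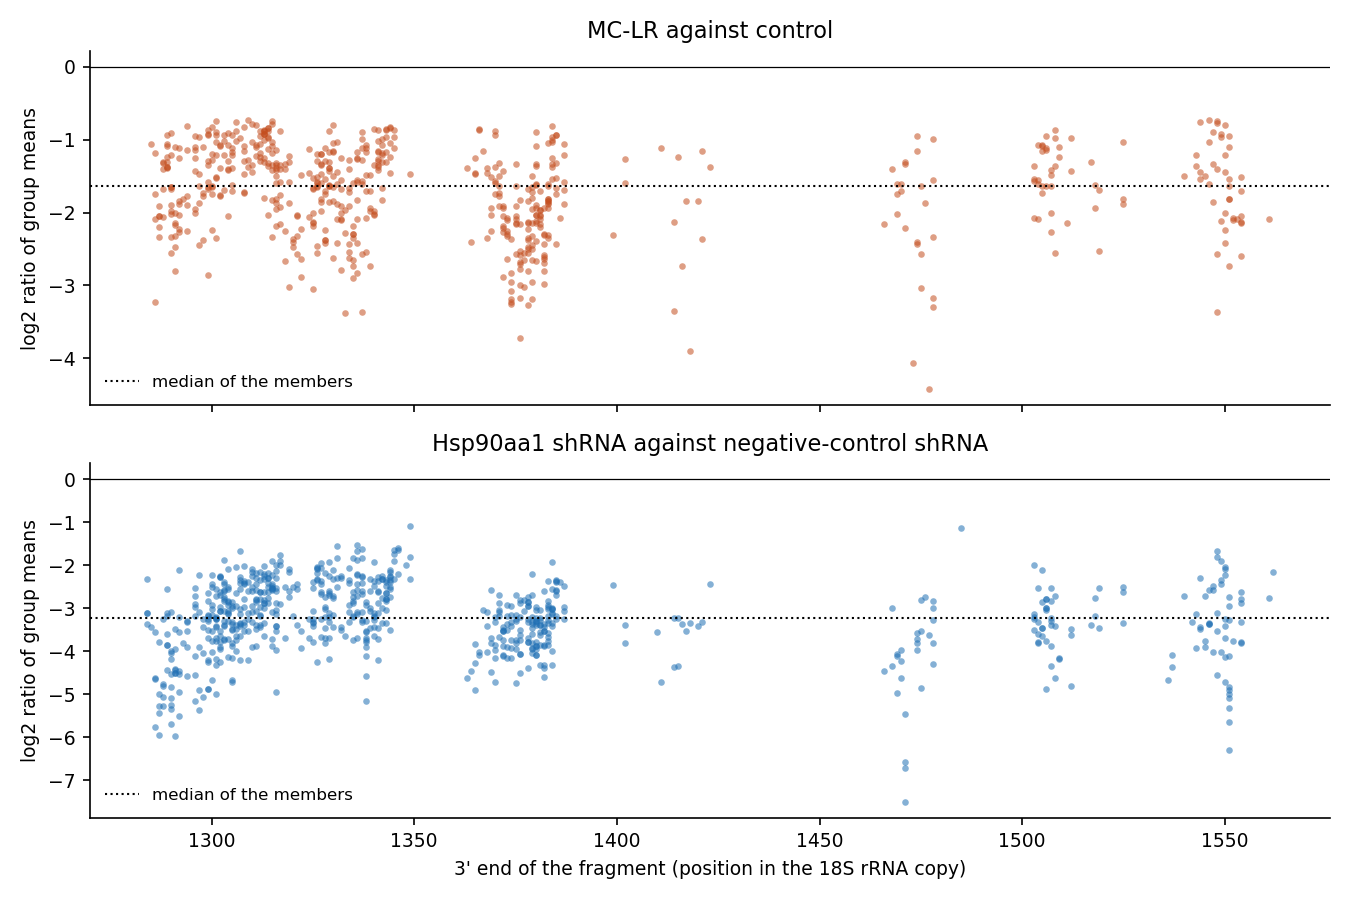
Log2 ratio of the group means (treated over control) of each member, by the position of its 3′ end in the 18S rRNA copy, for 642 members (top) and 752 members (bottom); the dotted line is the median of the members. Points at position 1374 lie low in the upper panel, from −3.26 to −2.37, and the 4 points at position 1471 lie lowest as a group in the lower panel, from −7.50 to −5.46.

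Among the abundant members of the shRNA table, the fragments from position 1279 were again prominent. piR-mmu-12369945 had 109 and 127 RPM with the negative-control shRNA and 8.16 and 5.35 RPM with the Hsp90aa1 shRNA, 17.4-fold lower (limma adjusted p = 0.000594). The 29-nt piR-mmu-11430284 had 115 and 119 RPM against 5.69 and 7.02 RPM, 18.4-fold lower (limma adjusted p = 0.000582). The 15 fragments starting at this position summed to 549 and 702 RPM against 40.9 and 23.1 RPM, 19.6-fold lower. Libraries of a group were close in the 26-nt and 29-nt fragments, and the groups were far apart.

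The 26-nt piR-mmu-3383227, of positions 1359 to 1384, was less reduced. It had 88.8 and 64.9 RPM with the negative-control shRNA and 9.66 and 8.12 RPM with the Hsp90aa1 shRNA, 8.65-fold lower (limma adjusted p = 0.00104). The 9 fragments starting at position 1359 summed to 206 and 147 RPM against 24.5 and 20.4 RPM, 7.87-fold lower.

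Among the abundant members, a pair of short, GC-rich fragments differed between replicates. The 19-nt piR-mmu-48904353, of positions 1519 to 1537, had 79.1 and 271 RPM in the negative-control libraries and 14.1 and 2.86 RPM in the Hsp90aa1 shRNA libraries (limma adjusted p = 0.00118). The 18-nt piR-mmu-49564991, which starts 1 base later, had 54.2 and 215 RPM against 12.1 and 3.88 RPM (limma adjusted p = 0.00158). Neither name is in the MC-LR table. In both, the fold was small between the A libraries and large between the B libraries.
piR-mmu-48904353: ccggggctgcacgcgcgct
piR-mmu-49564991: cggggctgcacgcgcgct

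A single tested member did not pass the threshold. piR-mmu-54012914, a 30-nt fragment projected to positions 1320 to 1349, was listed on chromosome 1 only. It had 6.90 and 4.78 RPM with the negative-control shRNA and 2.84 and 2.68 RPM with the Hsp90aa1 shRNA. Its limma adjusted p was 0.0601, and 0.0451 with a pseudocount of 5. The members with the smallest differences among those that fell were piR-mmu-15330813, with 1.75 and 1.42 RPM against 0.524 and 0.554 RPM, piR-mmu-17365062, with 1.24 and 0.897 RPM against 0.225 and 0.185 RPM, and piR-mmu-52121474, with 1.24 and 0.972 RPM against 0.299 and 0.0923 RPM. All 3 are low in every library, where the pseudocount of 1 makes a log2 difference small. Leaving out 1 Hsp90aa1 shRNA library ended each of these calls, with limma adjusted p of 0.101 and 0.0956 for piR-mmu-15330813 and 0.0514 and 0.0699 for piR-mmu-17365062 without A and without B, and 0.0934 for piR-mmu-52121474 without B.

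The 5 leading 5′ ends of the shRNA table held 56 members. They took 24.8% of the summed RPM of the members with the negative-control shRNA and 15.4% with the Hsp90aa1 shRNA. These ends were ranked by mean RPM over the 4 libraries, in which the negative-control libraries weigh most. A lower share in the other group can follow from that choice, so no conclusion is drawn from it. The 9 fragments starting at position 1448 moved most, from 5.49% to 1.10%, with sums of 314 and 448 RPM against 9.43 and 5.45 RPM, 51.2-fold lower. On either side of the empty run the block differed too. The 622 members before it summed to 5449 and 5094 RPM against 631 and 510 RPM, 9.24-fold lower, with a median log2 ratio of −3.17. The 130 members after it summed to 1348 and 1980 RPM against 127 and 80.4 RPM, with a median log2 ratio of −3.42. Under MC-LR both sides were close, with 3.06-fold and 3.41-fold lower sums. No test was made of these differences between sides.

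Fragment length moved with the libraries. Of the summed RPM of the members, fragments of 17 to 20 nt held 14.4% and 6.22% in the control, 8.99% and 11.2% with MC-LR, 8.83% and 22.7% in the negative-control libraries, and 12.5% and 4.14% in the Hsp90aa1 shRNA libraries. Fragments of 29 to 34 nt held 17.7% and 36.0% in the control, 25.0% and 25.9% with MC-LR, 31.5% and 17.3% in the negative-control libraries, and 26.1% and 47.3% in the Hsp90aa1 shRNA libraries. Control B and Hsp90aa1 shRNA B thus had the longest members, and control A and negative-control B the shortest. The mean length weighted by RPM ranged from 24.2 nt in negative-control B to 27.8 nt in Hsp90aa1 shRNA B.

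**Figure D5:**
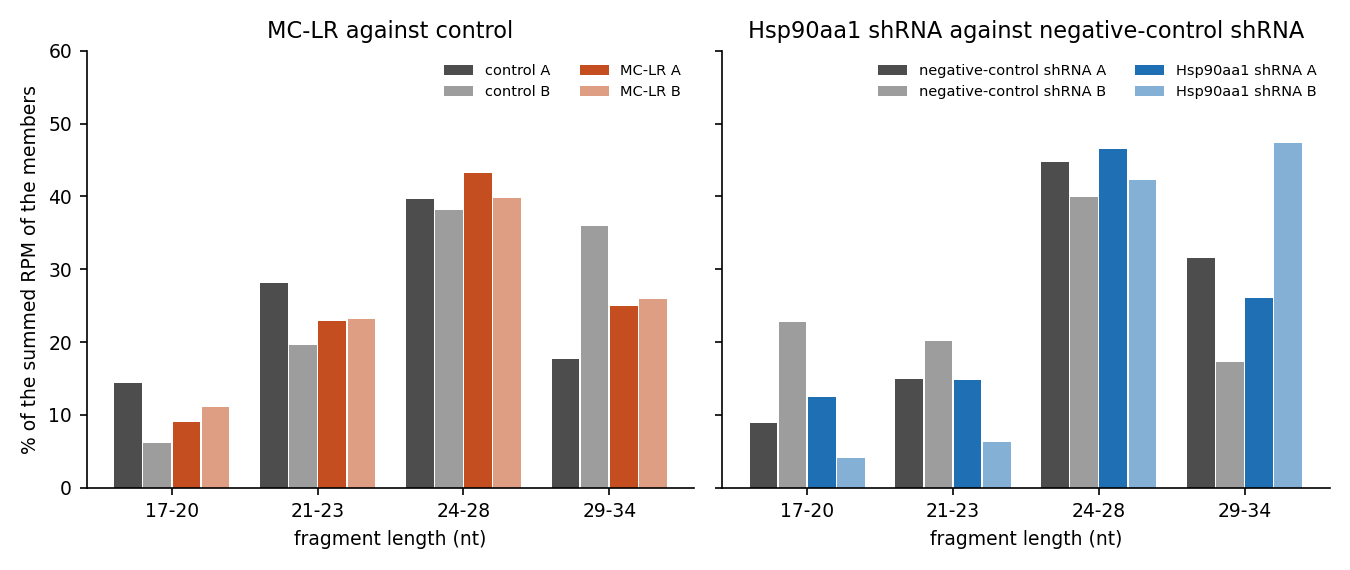
Percentage of the summed RPM of the members that falls in 4 classes of fragment length, with 1 bar per library (A dark, B light), MC-LR table on the left and shRNA table on the right. Libraries of a group differ: fragments of 29 to 34 nt hold 26.1% in Hsp90aa1 shRNA A and 47.3% in Hsp90aa1 shRNA B.

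In group means the shRNA difference was larger for short members, with a median log2 ratio of −3.99 at 17 to 20 nt, −3.70 at 21 to 23 nt, −3.17 at 24 to 28 nt and −2.62 at 29 nt and longer. Over all names of these lengths the medians were −3.46, −3.05, −2.79 and −2.61. It depended on the libraries. Between the B libraries the shortest class was 65.7-fold lower and the longest 4.38-fold lower, while between the A libraries they were 6.34-fold and 10.8-fold lower, the opposite order. Across the 752 members, length and log2 ratio had a Pearson r of 0.52 over group means and of −0.23 for the A libraries alone. The members overlap in sequence and come from the same libraries. Across all names of the shRNA table the r over group means was 0.28. Under MC-LR the classes were 3.32-fold, 3.29-fold, 2.94-fold and 3.22-fold lower, with an r of −0.03 over group means, beside −0.04 across all names. This too depended on the libraries, with an r of 0.46 and 0.45 for MC-LR A and B against control A, and of −0.43 and −0.53 against control B. The shortest class was 1.64-fold to 5.32-fold lower across these pairs of libraries.

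Members of the block could be split by whether they were also listed on the 18S copy of chromosome 17. Those listed only on chromosome 1 numbered 30 under MC-LR, of which 27 of 29 tested fell, beside 470 of 609 tested members that were listed on the 18S copy. With the shRNA, 36 of 37 tested members of the first kind and 703 of 703 of the second fell. The shares of all names tested that fell were 73.1% under MC-LR and 99.5% with the shRNA. The median log2 ratios of group means of both kinds of members were −1.53 and −1.63 under MC-LR, and −2.55 and −3.24 with the shRNA. The members listed only on chromosome 1 summed to 616 and 899 RPM in the control against 292 and 244 RPM with MC-LR, and to 388 and 274 RPM against 55.9 and 51.0 RPM in the shRNA table. No test was made of the difference between both kinds. Chromosome 17 also listed fragments at the 18S position of a member under another name, 29 in the MC-LR table and 39 in the shRNA table. Of these, 10 and 22 had equal values in all 4 libraries. A member listed only on chromosome 1 by its name is thus not shown to lack a fragment on the 18S copy.

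Reads of most members cannot be assigned to chromosome 1. Of the members under MC-LR, 498 were listed at 2 loci and 114 at 3 to 5 loci, and 605 of these 612 had equal values at every locus. Of those with the shRNA, 580 were listed at 2 loci and 134 at 3 to 5, and 707 of these 714 had equal values. Smaller copies that shared members lay on chromosome 10 (10:82955136-82955189, 49 members of the MC-LR table), on chromosome X (X:76128860-76128957, 47 members), on chromosome 8 (8:3754680-3754718, 26 members) and in Fam163b on chromosome 2 (2:27121197-27121308, 23 members). Others in the MC-LR table lay on chromosome 4 (4:78773714-78773880, 16 members, and 4:78773879-78773914, 17 members) and on chromosome 3 (3:120595742-120595761, 4 members). A level given here is that of a sequence shared by all its copies, and no value shows transcription of chromosome 1 at this position.

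The same 18S window also gave names listed on chromosome 17 that are not members, 707 in the MC-LR table and 758 in the shRNA table. These counts leave out 29 and 39 names, respectively, that lie at the same 18S position as a member under another name. Under MC-LR, 573 of 702 tested names of that kind fell (81.6%, beside 77.8% of the members and 73.1% of all names). Their median was −1.29 on the log2(RPM + 1) scale, beside −1.23 for the members. With the shRNA all 745 tested names of that kind fell, beside 99.5% of all names. Their median was −2.05, beside −1.92 for the members. The remaining names of the 45S repeat copy of chromosome 17, 3379 under MC-LR and 4118 with the shRNA, had medians of −1.14 and −1.69. These are mostly 18S names too, since 4041 of the 4086 and 4826 of the 4876 names of that copy lay on 18S. Some of the 29 and 39 names at a member's position may also be among them. They are thus not a contrast with the parts of 45S outside 18S. With the shRNA the sums were 10.3-fold lower for the members, 12.6-fold for the other window names and 6.91-fold for the remaining 45S names. The sum of the rRNA-like locus of chromosome 16 was 49.3-fold lower, with 9087 and 23007 RPM against 406 and 245 RPM. Under MC-LR it was 3.37-fold lower. The TMM medians of that locus were −0.29 under MC-LR and −0.62 with the shRNA. A larger fall than that of the whole list was thus not particular to this block. With TMM factors the medians of members, other window names and the remaining 45S names were 0.02, 0.00 and 0.06 under MC-LR, and −0.38, −0.44 and −0.14 with the shRNA. In these medians the members lay within 0.2 of the other window names, and no test was made of the differences.

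The comparisons share no library, and each was tested within its own table. Of the 585 members in both tables, 458 fell in both by limma. Of all names tested, 73.1% fell under MC-LR and 99.5% with the shRNA, so this count sets the members little apart. Across these members the log2 ratios of both comparisons had a Pearson r of 0.20 and a Spearman rho of 0.23, a description over overlapping sequences. The members that were reduced most differed accordingly. piR-mmu-57637038 had log2 ratios of −2.22 under MC-LR and −7.50 with the shRNA, and piR-mmu-10826573 had −4.42 and −3.62.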

How the data were processed

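Members and lists were chosen with earlier results of these data known. The authors deposited 2 tables of RPM values per locus and piRNA name. The submitters' processing notes name Bowtie2 2.2.3, HISAT2 2.1.0, HTSeq 0.6.0 and the mm10 build; what each tool did, how reads were trimmed, which total stands behind RPM and how reads that match several loci were treated is not given in the sources used here. Trizol extraction and an Illumina RNA library kit are stated per the labels' protocols. Groups and letters came from the sample titles.

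The RPM columns step in units of 1 read (100% of values within 0.01 of a whole read), and reads and library totals were recovered from these steps. Start columns were taken as 0-based and printed as 1-based: 184 plus-strand loci of the MC-LR table then begin at a mature microRNA 5′ end, against 22 otherwise. Each name was used once. The main test was limma 3.58.1 (trend and robust; R 4.3.3) on log2(RPM + 1), each table alone, over names whose mean reached 1 RPM in either group, at a false discovery rate of 0.05 over all names. Alternatives were edgeR 4.0.16 (quasi-likelihood) and DESeq2 1.42.0 on the recovered reads, other pseudocounts, no filter, a replicate block and leaving out libraries. Simulated counts without a shift of the whole list were run through limma, DESeq2 and edgeR on library totals, not edgeR with TMM factors. Sums were compared by exact permutation. Named members were the 6 most abundant, the 3 largest falls, the 3 smallest falls or rises and the leading fragment of the 5 leading 5′ ends of each table, and tested members not past the threshold where there were 10 or fewer. Names overlap and are not independent measurements. Sequences came from GENCODE M21. Tables were read with Python 3.11.15 and pandas 2.3.3.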

Additional observations from a re-analysis of the deposited data

How the results depend on the processing

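The count of members lower under MC-LR, 497, was 262 to 541 when each library was left out in turn (262 without MC-LR A, 272 without MC-LR B), which leaves a lone library that is assumed to vary like the others. The count with the Hsp90aa1 shRNA, 742, was 699 to 736. With TMM factors the counts were 4 and 2, and with DESeq2's size factors 4 and 6, since both centre the listed names on each other; edgeR on library totals gave 519 and 741. Relative to all listed names, the log2 ratio of the locus sum was −0.04 in place of −1.65 under MC-LR and −0.44 in place of −3.36 with the shRNA. Same-letter libraries share only a letter (correlation of their deviations 0.07 and −0.61 across names). With a replicate block the counts were 498 and 740, and with crossed pairing in the shRNA table, an alternative chosen after seeing the data, 743. No member was past the threshold as higher under any of these settings.

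Some named members changed sign after centring. With TMM factors under MC-LR these were piR-mmu-12369945 at 0.57, piR-mmu-12369941 at 0.27, piR-mmu-26654757 at 0.64, piR-mmu-17842142 at 0.80, piR-mmu-49168043 at 0.38 and piR-mmu-10948533 at 0.57. With DESeq2 they were at 0.61, 0.31, 0.68, 0.87, 0.51 and 0.67, and piR-mmu-48950142 was at 0.0194. With the shRNA, piR-mmu-54012914 was at 1.78 and 1.87, piR-mmu-15330813 at 1.28 and 1.37, piR-mmu-52121474 at 0.38 and 0.40 and piR-mmu-17365062 at 0.46 and 0.53 with TMM factors and DESeq2. None of these passed the threshold. When single libraries were left out, piR-mmu-49168043 ranged from −1.36 without control B to 0.34 without control A, and piR-mmu-10948533 from −1.06 without control B to 0.0577 without control A. At 5 to 9 reads per median member in the Hsp90aa1 shRNA libraries, counting error limits single low members.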
